A study of Mus musculus with 4 samples.

Results

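The 10 transcription factors described here, Tbx18, Tbx2, Tbx3, Tshz3, Osr1, Gata6, Gata2, Meox1, Tcf21 and Sox9, are known from the mesenchyme that surrounds the embryonic ureter. They were chosen by name, as every non-control probe whose gene name in the scanner files was 1 of these 10. Each name had 1 probe, which gave 10 of the 39429 probes on each array. Ureters of the outbred mouse strain NMRI were compared at E18.5, late in gestation. The 4 conditional mutant RNAs, labelled ΔNp63-cKO and called cKO here, carried Pax2-cre/+ together with Trp63(dN-flox/dN-flox), so that the ΔN form of p63 was floxed on both alleles. The 4 control RNAs were Trp63(dN-flox/?), with at least 1 floxed allele, a second allele that the label does not give, and no cre in the label. Each array carried 1 cKO and 1 control RNA of the same sex in different dyes, with 3 female pairs and 1 male pair (array 2). As background, Pax2 is active in the nephric duct, from which the epithelium of the ureter grows, and p63 is a factor of basal epithelial cells.

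The ureter forms from an epithelial tube and a mesenchymal sleeve. Sonic hedgehog and Wnt signals from the epithelium act on the mesenchyme. There, BMP signalling and a set of transcription factors lead cells to become smooth muscle or fibroblasts of the lamina propria and the adventitia. In mice, Tbx18 is needed for this sleeve to form, and Tshz3, Gata2 and Gata6 act in the smooth muscle programme that runs through the coactivator myocardin.

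Each factor was read by 1 probe of 60 bases, spotted 4 times per array. In mm9 the probes lie at chr9:87599514-87599573 for Tbx18, chr11:85655391-85655450 for Tbx2, chr5:120134511-120134570 for Tbx3, chr7:37557872-37557931 for Tshz3 and chr12:9587390-9587449 for Osr1. The others lie at chr6:88156362-88156421 for Gata2, chr11:101738847-101738906 for Meox1, chr10:22537563-22537622 for Tcf21 and chr11:112648809-112648868 for Sox9. The Tbx18, Meox1 and Tcf21 probes lie on the minus strand and the others on the plus strand. The files name a transcript for each probe but give no exon or UTR. Stretches of 30 bases of the T-box, Osr1 and Sox9 probes, 5′ to 3′ as the scanner files list them, are shown because a ratio of a factor is the ratio at this single stretch of its transcript. Capitals mark AATAAA, the usual polyadenylation signal, searched on the probe strand only.

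Tbx18: tctgaggtatctatagcAATAAAggcttag
Tbx2: aagcgagaaaatAATAAAaacgctatcatg
Tbx3: ctttatggtgttttggattggtgtactgag
Osr1: gatcaaatgctaAATAAAcagagcctgcgg
Sox9: ataaaaccttaaagcgttcttataatatgg

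The hexamer was present in 3 of the 10 probes, those of Tbx18, Tbx2 and Osr1, against 12.6% of all probes on the array. The Tbx2 and Tbx3 probes, which serve closely related genes, shared no run longer than 7 bases, and no pair among the 10 probes shared more than 8. The GC content was lowest in the Sox9 probe and highest, at 55.0%, in the Tcf21 probe.

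All 10 factors were well above background in the 8 RNAs, so each passed the filter on dim probes, and none was called saturated. The weakest reading, of Sox9, was 13.8 times its local background. The 4 spots of a probe gave log2 ratios with an SD of 0.01 to 0.15, after 10 of 160 spots were left out as outliers by the scanner software. Log2 ratios of cKO over control were tested with limma over 18170 genes with the dye as a term, and a gene was called at a Benjamini-Hochberg adjusted p under 0.05. The errors below are SDs over the 4 arrays. The labels do not say how many embryos gave each RNA, and the spread behind each p is that among the 4 arrays, which may be partly technical. In whole ureters, fewer cells of a type and less RNA per cell cannot be told apart.

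Of the 10 factors, 1 rose (Gata6), 0 fell and 9 were not called, against 2.92% of all tested genes called higher, 5.62% called lower and 8.54% called in either direction. At an unadjusted p under 0.05 in limma, 3 were higher (Gata6, Osr1 and Tbx18) and 0 were lower, against 10.8% and 12.8% of all genes. The median log2 ratio of the 10 was 0.11, and that of all tested genes was 0.00. The median size of the ratio, whatever its sign, was 0.124 for the 10 and 0.078 for all tested genes. By array the median of the 10 was 0.16, 0.10, 0.01 and 0.04 on arrays 1 to 4. The sign was the same on the 4 arrays for 4 factors (Tbx18, Osr1, Gata6 and Sox9), against 30.6% of all genes. The targeted gene, Trp63, fell 4.52-fold on the same arrays (-2.18 ± 0.50, limma adjusted p = 0.00208).

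**Figure D1:**
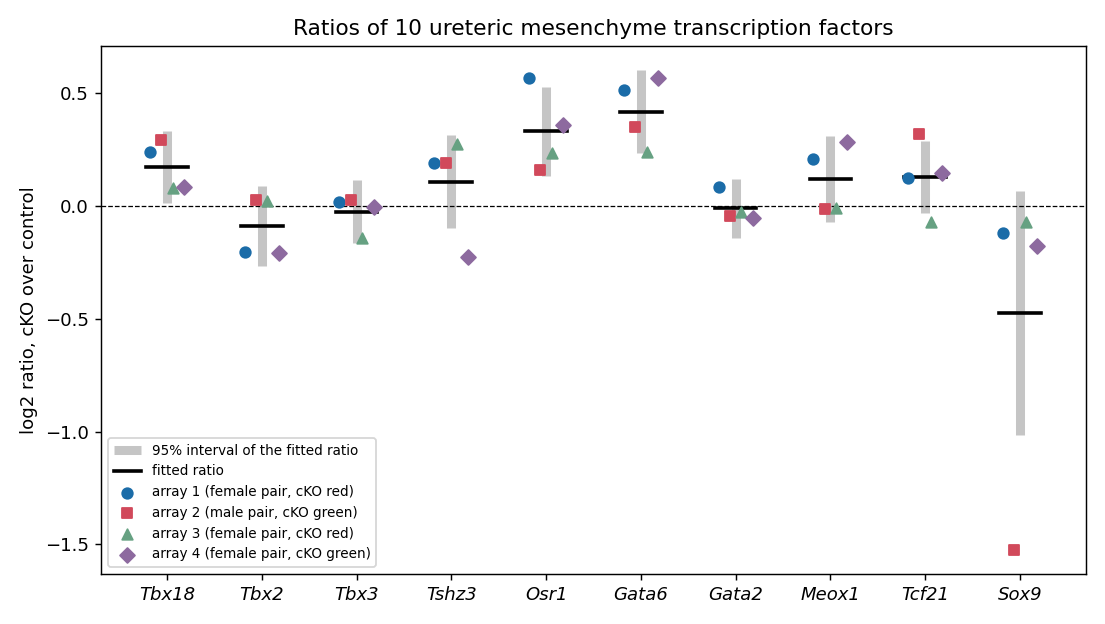
Log2 ratio of cKO over control for each of the 10 factors, with 1 point per array, the fitted ratio as a black line and its 95% interval as a grey bar. Gata6, Osr1 and Tbx18 lie above 0 on every array, and the Sox9 ratio of -1.52 on array 2 lies apart from its other 3 ratios.

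Tbx18, the T-box factor that marks the ureteric mesenchyme, had log2 levels of 14.40, 13.97, 14.01 and 14.00 in the cKO RNAs of arrays 1 to 4, against 14.16, 13.68, 13.93 and 13.92 in the control RNAs. The cKO was higher on each array by 0.08 to 0.29, while the ranges of both genotypes overlapped, since both RNAs of array 1 were high. The ratio was 0.17 ± 0.11 (95% interval 0.01 to 0.34, limma adjusted p = 0.182), and a rise above 1.26-fold lay outside that interval. Tbx2 and Tbx3 are T-box repressors, which in the mouse ureter act in the mesenchyme. Tbx2 had a ratio of -0.09 ± 0.13 (limma adjusted p = 0.532), with -0.20, 0.03, 0.02 and -0.21 on arrays 1 to 4. Tbx3 had a ratio of -0.03 ± 0.08 (limma adjusted p = 0.844), which was 0.01 without array 3. Its 4 ratios lay between -0.14 and 0.03, among the tightest of the 10. The 95% intervals ran from -0.27 to 0.09 for Tbx2 and from -0.17 to 0.11 for Tbx3.

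Among the genes whose ratios lay nearest to those of Tbx18 over the 4 arrays were Mup21 and Cers4, at Euclidean distances of 0.06 and 0.08 log2 units. Neither was called (limma adjusted p = 0.182 and 0.226).

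Gata6, a zinc finger factor which in the mouse ureter is needed for the expression of myocardin, was the factor that rose. Its probe lies at chr18:11085039-11085097 (mm9). Its log2 levels were 15.07, 15.06, 15.16 and 15.40 in the cKO RNAs of arrays 1 to 4, against 14.56, 14.71, 14.91 and 14.83 in the control RNAs. The lowest cKO level was above the highest control level, which was true of Gata6 alone among the 10 and of 3.65% of all tested genes. The opposite, with every cKO level below every control level, was true of 0 of the 10 and of 6.18% of all tested genes. The ratio was 0.42 ± 0.15, a 1.34-fold rise (95% interval 1.18-fold to 1.52-fold, limma adjusted p = 0.0306), with 0.52, 0.35, 0.24 and 0.57 on arrays 1 to 4. The call was lost without array 1 (limma adjusted p = 0.117), array 2 (0.0553) or array 4 (0.123). Here and below, fits without an array kept the dye term and had fewer residual degrees of freedom. They called 277 to 354 genes higher, against 530 as reported, so a lost call does not by itself point to that array. The Gata6 call was also lost with the deposited value table (0.0818). Over the 15 alternatives the ratio lay between 0.35 and 0.49 and the adjusted p between 0.00743 and 0.127. The nearest patterns to Gata6 were those of Npas3, Gpr146 and Actn3, at distances of 0.10, 0.11 and 0.12, with ratios of 0.44, 0.38 and 0.39.

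Some markers of other tissues were called higher in the cKO RNAs. Gata6 is also known from the adrenal cortex and the liver. The marker genes in this paragraph were named after their values were seen. Of the 8 tested adrenal cortex and gonad markers, 2 rose, the steroid enzymes Hsd3b1 (1.84 ± 0.73, limma adjusted p = 0.0207, 0.0638 without array 1) and Cyp11b1 (0.94 ± 0.62, adjusted p = 0.0229, 0.0828 without array 4). The Cyp11b1 signal of the control RNA exceeded background clearly on 1 array alone, so this gene entered the test through its cKO signal. The other 6 were not called: Nr5a1 (0.064), Star (0.129), Cyp11a1 (0.379), Cyp21a1 (0.399), Cyp17a1 (0.003) and Inha (-0.126). The median of the list was 0.56, 0.15, 0.22 and 0.12 on arrays 1 to 4. Amh, the testis hormone in that list, was not well above background in any RNA, and the summed level of the list was 5137 to 6684 units in cKO RNAs and 4973 to 5434 in control RNAs. Of 10 hepatocyte markers 5 rose, with medians of 2.31, 2.61, 1.34 and 0.57 by array and summed levels of 30075 to 240434 units in cKO RNAs, against 12580 to 45274 in control RNAs. The calls of the 5 (Afp, Ahsg, Apoa1, Fgb and Fgg) were lost without array 1 and also without array 3. Those of Afp and Fgg were lost without array 2 as well. Of 5 tested mesothelial markers 1 rose, Msln, at 2.84 ± 0.17 (limma adjusted p = 0.000172). Summed levels of the list were 39120 to 81310 units in cKO RNAs and 20980 to 29532 in control RNAs. These sums include Msln, so they are not separate from its call. Its mean log2 level was 15.131 in cKO RNAs and 12.295 in control RNAs. The other mean levels were 13.838 and 14.001 for Upk3b, 10.166 and 10.682 for Wt1, 11.291 and 10.286 for C3, and 9.728 and 9.135 for Rspo1. The medians of the mesothelial list were 1.42, 0.27, 0.16 and 0.33 by array, and Wt1 (-0.52 ± 0.86) and Upk3b (-0.16 ± 0.39) were not called. The part of these tissues in the Gata6 ratio was not tested.

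Gata2, the related zinc finger factor, was even between the genotypes. Its log2 levels were 14.60, 14.72, 14.73 and 14.67 in the cKO RNAs, against 14.52, 14.76, 14.75 and 14.72 in the control RNAs. The ratio was -0.01 ± 0.06 (95% interval -0.14 to 0.12, limma adjusted p = 0.942). This was the smallest SD of the 10, and a change beyond 1.10-fold in either direction lay outside the interval.

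Osr1, a zinc finger factor of the intermediate mesoderm, lay just outside the call. Its log2 levels were 13.30, 13.49, 13.61 and 13.46 in the cKO RNAs of arrays 1 to 4, against 12.73, 13.33, 13.38 and 13.10 in the control RNAs. The cKO was higher on every array, and the ranges of both genotypes overlapped. The ratio was 0.33 ± 0.18 (95% interval 1.10-fold to 1.44-fold, limma adjusted p = 0.0678), with 0.57, 0.16, 0.23 and 0.36 on arrays 1 to 4. Osr1 was called in 2 of the 15 alternatives. These left out the dye term (limma adjusted p = 0.0421) or fitted the separate channels with the array as a replicate block (0.0466). Over the 15 alternatives the adjusted p reached 0.464, and it was 0.246 without array 4.

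**Figure D2:**
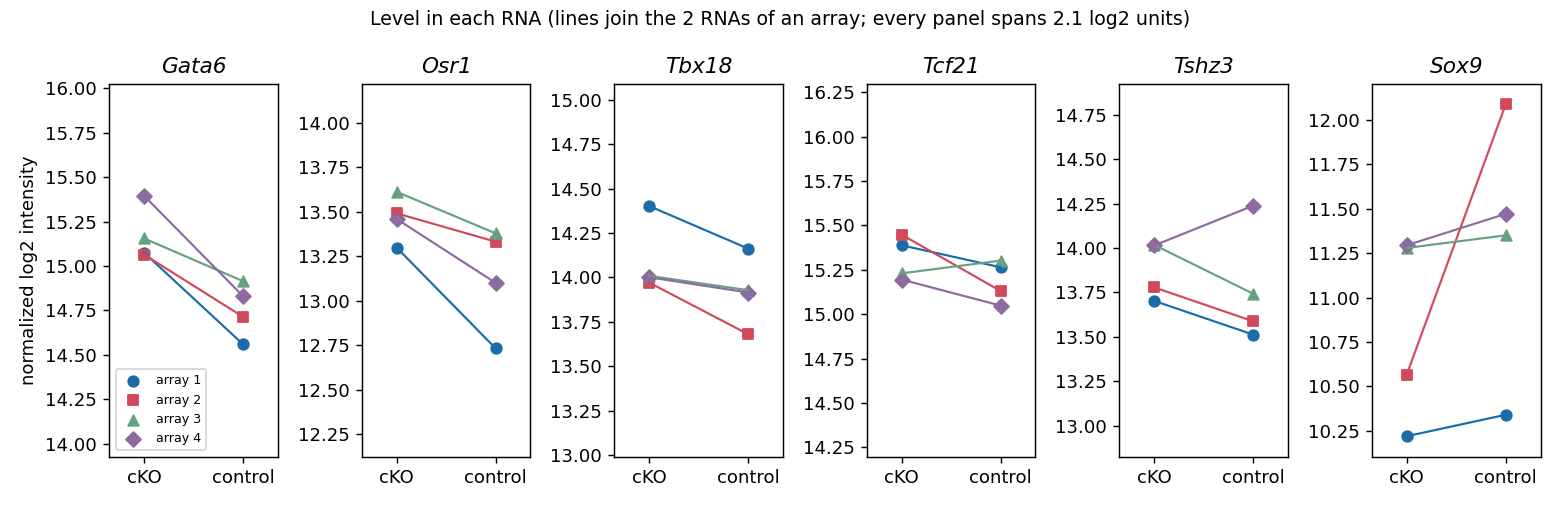
Normalized log2 intensity of 6 factors in the cKO RNA (left) and the control RNA (right) of each array, joined by a line, on axes of equal span. The Gata6 levels of both genotypes do not overlap, the cKO is above the control on every array for Osr1 and Tbx18, and the Sox9 lines are nearly level except on array 2.

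Tshz3, a zinc finger factor required for myocardin expression in the mouse ureter, did not keep its direction over the arrays. Its log2 levels were 13.70, 13.78, 14.02 and 14.01 in the cKO RNAs, against 13.51, 13.59, 13.74 and 14.24 in the control RNAs. The ratio was 0.19, 0.19 and 0.28 on arrays 1 to 3 and -0.22 on array 4, on average 0.11 ± 0.23 (limma adjusted p = 0.512). Tcf21, a basic helix-loop-helix factor of stromal cells, had a ratio of 0.13 ± 0.16 (limma adjusted p = 0.303), with 0.12, 0.32, -0.07 and 0.15 by array. Meox1, a homeobox factor of the somites, had a ratio of 0.12 ± 0.15 (limma adjusted p = 0.424), with 0.21, -0.01, -0.01 and 0.29. The 95% intervals of these 3 factors all included 0 and ended at 1.24-fold higher for Tshz3 and Meox1 and at 1.22-fold higher for Tcf21.

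Sox9, an HMG-box factor known from chondrocytes, Sertoli cells and several developing epithelia and mesenchymes, had the widest spread. Its log2 levels were 10.22, 10.56, 11.28 and 11.29 in the cKO RNAs of arrays 1 to 4, against 10.34, 12.09, 11.35 and 11.47 in the control RNAs. The control RNA of array 2, the male pair, was the highest of the 8, and both RNAs of array 1 were the lowest of their genotype. The cKO was 2.88-fold lower on array 2, and the other 3 ratios lay between -0.18 and -0.07. The ratio over the 4 arrays was -0.47 ± 0.70 (95% interval -1.01 to 0.07, limma adjusted p = 0.264), with an SD above that of 99.4% of all tested genes. Without array 2 it was -0.14 (adjusted p = 0.348). Without array 4 it was -0.81 and past the threshold (0.0096), in a fit where array 2 was the sole array of its dye orientation and the residual came from arrays 1 and 3 only.

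Sex was fitted as a further term, male minus female, which leaves 1 residual degree of freedom and equals array 2 minus array 4. It was -1.35 for Sox9 (limma adjusted p = 0.259, unadjusted p = 0.000548). None of the 10 factors and 0 of the 18170 tested genes passed the threshold for this term, where 861 genes had an unadjusted p under 0.05 in limma. With 1 male pair, sex and the other properties of array 2 cannot be told apart. Of 6 tested cartilage markers, 1 rose (Col2a1, 0.86 ± 0.35, named after its value was seen) and 0 fell. On array 2, Col2a1 had a ratio of 0.54, and the other 5 (Acan, Col9a1, Col11a2, Hapln1 and Cnmd) lay between -0.17 and -0.05. Comp and Snorc were not well above background in any RNA, and the summed level of the list was 20419 to 27875 units in cKO RNAs and 16754 to 22032 in control RNAs. The part of cartilage in the Sox9 ratio was not tested.

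**Figure D3:**
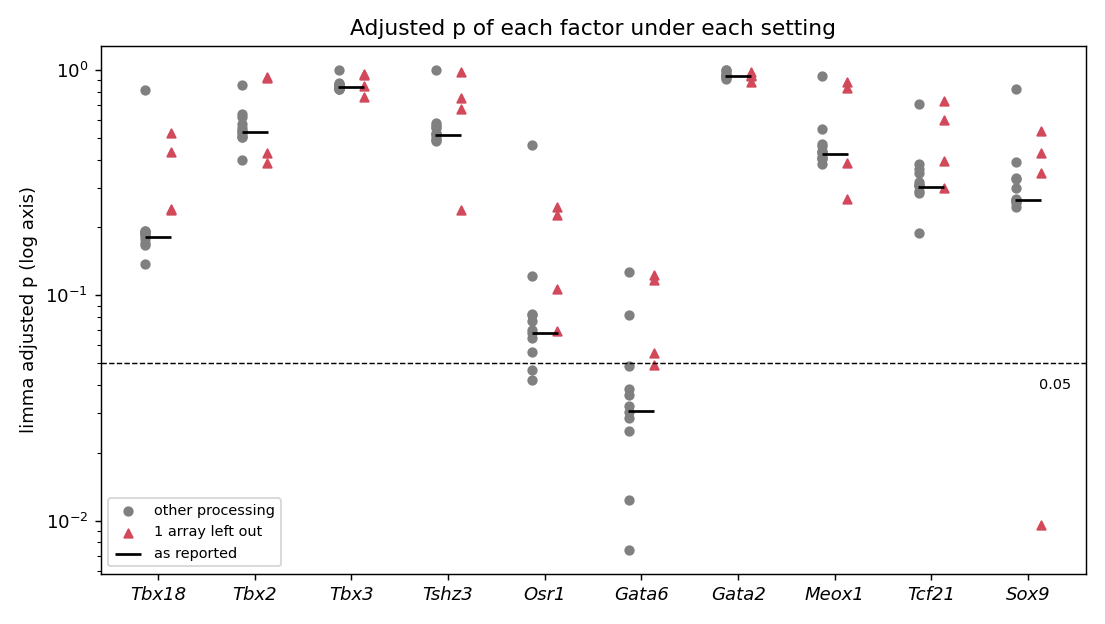
Adjusted p (log axis) of each factor as reported (bar), under 11 other processing settings (grey) and with 1 array left out (red). Settings below the dashed line at 0.05 occur for Gata6, for Osr1 in 2 settings and for Sox9 in 1.

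The genes around these factors were described through 7 lists chosen by role. For all the lists, the shares of all tested genes were 2.92% called higher and 5.62% called lower. At an unadjusted p under 0.05 in limma they were 10.8% and 12.8%. Among 30 factors of the same families, 22 were tested, of which 1 rose, 1 fell and 20 were not called, with a median of 0.02. Tbx1 fell 2.54-fold (-1.35 ± 0.30, limma adjusted p = 0.00446), with a ratio below 0 on every array. Tbx4 rose 1.70-fold (0.77 ± 0.24, adjusted p = 0.0134, 0.060 without array 1 and 0.0542 without array 3). These were the T-box genes called in that list, while Tbx18, Tbx2 and Tbx3 were not called. Tbx19 and the T gene were not well above background in any RNA.

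Of 31 other mesenchyme factors, 3 rose, 0 fell and 28 were not called, with a median of 0.13, close to that of the 10. The 3 were Meis2, a homeobox cofactor (0.41 ± 0.18, limma adjusted p = 0.0229), Ebf1 (0.32 ± 0.08, adjusted p = 0.0297) and the basic helix-loop-helix factor Hand2 (0.56 ± 0.27, adjusted p = 0.024). None of the 31 was called by limma without array 1, without array 2 or with the deposited value table, although 11 were higher at an unadjusted p under 0.05 over the 4 arrays. The call of Meis2 was also lost without array 3 (0.0795), and that of Ebf1 without array 3 (0.0947) or array 4 (0.131). Foxf1, a target of Sonic hedgehog in the mouse ureter and named here after its value was seen, had a ratio of -0.08 ± 0.30 (adjusted p = 0.757).

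Genes of the signals that act on the mesenchyme were called in both directions. Whole ureters do not show in which cells these genes differed. In the list of Sonic hedgehog and BMP genes, 2 of 20 rose, 4 fell and 14 were not called, with a median of -0.04. Both calls of higher genes were lost without array 1, array 3 or array 4. The members named from it were the ligands Shh (-2.21 ± 0.07, limma adjusted p = 0.000157) and Bmp7 (-0.97 ± 0.29, adjusted p = 0.0103) and the hedgehog receptor and target Ptch1 (-0.53 ± 0.24, adjusted p = 0.00646). Bmp4, the BMP ligand of the ureteric mesenchyme and likewise named after its value was seen, had a ratio of -0.18 ± 0.13 (adjusted p = 0.178). In the Wnt list 8 of 18 rose, 1 fell and 9 were not called, with a median of 0.34. Wnt9b, a ligand of the duct epithelium, rose (1.29 ± 0.35, adjusted p = 0.00607), as did the targets Axin2 (0.78 ± 0.30, adjusted p = 0.00952) and Sp5 (0.76 ± 0.25, adjusted p = 0.0087). Wnt7b, the other Wnt ligand of the list and named after its value was seen, was not called (-0.055 ± 0.284, limma adjusted p = 0.837). The Wnt count was 4 higher without array 1, 3 higher without array 4 3 higher with the deposited value table and 0 higher in the limma fit of separate channels with no replicate block, against 12 at an unadjusted p under 0.05 as reported. In the retinoic acid list 2 of 14 rose, 3 fell and 9 were not called, with a median of 0.15. Cyp26a1, which degrades retinoic acid, rose (0.48 ± 0.16, adjusted p = 0.0141), although its control signal was well above background on 1 array alone of the 4. It thus entered the test through its cKO signal. Where both genotypes had to be well above background on all arrays, 1 gene of this list was called higher. The reductase Dhrs3 (-0.45 ± 0.16, adjusted p = 0.0158) and the receptor Rxra (-0.34 ± 0.07, adjusted p = 0.0227) fell. The calls of these 3 were each lost without array 1 (adjusted p = 0.0607, 0.0773 and 0.0975) or array 4 (0.0661, 0.0685 and 0.105), and that of Rxra also without array 2 (0.0539) or array 3 (0.0928).

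**Figure D4:**
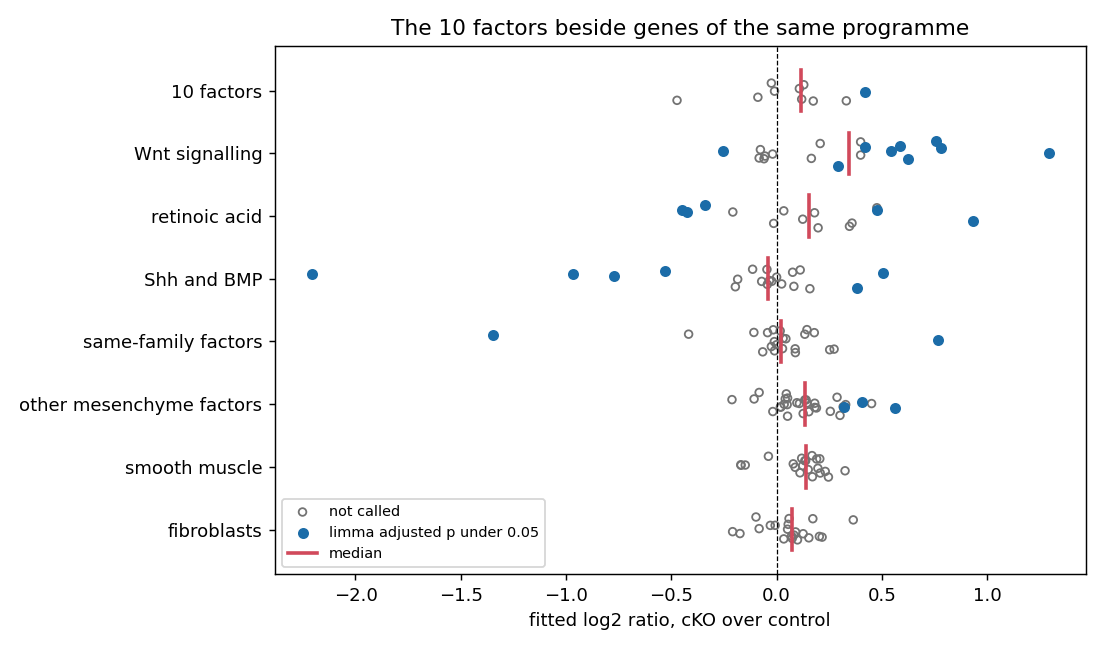
Fitted log2 ratio of cKO over control for the 10 factors (top row) and for 7 lists of genes of the same programme, with genes called by limma in blue and the median in red. The 10 factors and the smooth muscle and fibroblast genes lie within a narrow band around 0, with Sox9 the lowest of the 10, while the Wnt list has 8 genes that rose and the Shh and BMP list holds Shh at -2.21.

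Of the smooth muscle genes 0 of 21, and of the fibroblast genes 0 of 21, were called by limma in either direction. At an unadjusted p under 0.05, 9 smooth muscle genes were higher and 1 was lower, and 2 fibroblast genes were higher. The medians were 0.14 and 0.07. Smooth muscle actin, the brightest smooth muscle gene, had a ratio of 0.14 ± 0.14 (Acta2, limma adjusted p = 0.213), and decorin, the brightest fibroblast gene, one of 0.17 ± 0.16 (Dcn, adjusted p = 0.187). Myocardin, named after its value was seen, had a ratio of 0.25 ± 0.22 (Myocd, adjusted p = 0.0872). On the same arrays, 9 of 23 epithelial markers, Trp63 itself among them, fell and 1 rose, with a median of -0.59 and summed levels of 525366 to 830203 units in cKO RNAs, against 924867 to 1027452 in control RNAs. At an unadjusted p under 0.05 in limma, 17 of the 23 were lower and 1 was higher. All 23 were well above background in some RNA of each genotype. The falls were uneven. The lowest ratios were those of Krt5 (-2.86), Krt15 (-2.55) and Trp63 (-2.18). The uroplakins Upk1a (-0.671) and Upk3a (-0.221) were not called, nor were Krt8 (0.002), Cldn3 (-0.035) and Cldn7 (-0.093). Whether the lower signal of these markers raised the ratios of mesenchymal genes was not tested. The endothelial markers had a median of 0.16 (1 of 10 rose), skeletal muscle markers of 0.18 (1 of 10 rose) and neuron and glia markers of 0.13 (1 of 11 rose). At an unadjusted p under 0.05 in limma, 5 endothelial, 1 skeletal muscle and 3 neuron and glia markers were higher, and 1 skeletal muscle marker was lower. The shares of all tested genes were 10.8% higher and 12.8% lower. Leukocyte markers had a median of -0.06 (0 of 10 called by limma, with 0 at an unadjusted p under 0.05) and nephron markers one of -0.08 (0 of 5 called, with 1 higher at an unadjusted p under 0.05).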

How the data were processed

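Total RNA (200 ng) was amplified once, coupled to AlexaFluor555 (green) or AlexaFluor647 (red) and hybridised on 4 arrays of 1 slide, with the cKO in red on arrays 1 and 3, per the labels. The deposited scanner files hold intensity values on a linear scale, background medians and log10 ratios of red over green per spot, and a flag (another unit, 0 or 1) for spots well above background, which the authors produced in Agilent Feature Extraction (10.7.3.1 per the headers). The deposited value table holds log2 ratios, whose direction was found to be cKO over control and whose columns have a median of 0.

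Mean signals were corrected with normexp (offset 50), normalized by loess within arrays (control spots had weight 0 there), and expressed as log2 of cKO over control. Levels are log2 intensities after quantile scaling of the array averages. A gene entered the test if a probe exceeded background clearly in over 50% of its spots on the 4 arrays in either genotype, and its brightest such probe stood for it. Names came from RefSeq (GRCm38.p6; 28322 probes by accession, 3405 by symbol, 243 by an older symbol, 1778 as in the files), and 5681 unnamed probes were left out. Ratios were fitted with limma 3.58.1 in R 4.3.3, with 2 residual degrees of freedom. This fit alone was tested on simulated ratios, with noise drawn from its own variance model. The steps before it were not tested so. Median signals per channel were 460.3 to 607.3 units over backgrounds of 31 to 82; precision is limited by having 4 arrays. Control and cKO share an array, so pairing is built into the ratio.

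The members, lists and tests were chosen with earlier results of these data known. Named genes were the 10 factors, Trp63, up to 3 called genes with the lowest p from each list of the programme or its brightest gene where none was called, and the 3 genes nearest to Tbx18 and Gata6 by Euclidean distance, of which 1 is not reported here. Genes of the marker lists, and others marked so in the text, were named after their values were seen. Positions are those of the files (mm9).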

Additional observations from a re-analysis of the deposited data

Results flagged for a closer look

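Over 4 arrays, the ratio and both genotypes' levels of each factor and the median of the 10 were examined for a value far from the other 3, and 3 of 31 such groups held one; chance flags about 1 in 20. Sox9 had a ratio of -1.52 on array 2, against -0.18 to -0.07 on the other arrays. Tbx18 had a level of 14.40 in the cKO RNA of array 1, against 13.97 to 14.01 in the other cKO RNAs; the control RNA of array 1 was also the highest control, at 14.16. Tshz3 had a ratio of -0.22 on array 4, against 0.19 to 0.28 on the others, a gap of 0.83 of the range, which only just passed the limit.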

How the results depend on the processing

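Of the 10 factors, 8 kept the direction of their ratio under the 15 alternatives; Gata2, at -0.01, was 0.00 with the deposited value table and 0.02 without array 3, and Tbx3, at -0.03, was 0.01 without array 3. With the deposited value table, 253 genes were higher and 583 lower, and 0 factors were higher. Without the dye term 2 factors were higher (Gata6 and Osr1). A fit of the separate channels with no replicate block gave 120 genes higher and 438 lower, with 0 factors higher; with the array as a replicate block it gave 901 higher, with 2 factors higher (Gata6 and Osr1; adjusted p = 0.00743 and 0.0466). In the fit over all probes, 0 of the factors' probes were called with Agilent's processed signals, against 1 as reported. Leaving out each array in turn gave 277 to 354 genes higher and 554 to 764 lower, 0 to 1 factors higher, 0 to 1 lower (Sox9 without array 4), 0 to 1 probes called, and a median of the 10 of 0.05 without array 2 (0.045) to 0.13 without array 3. Gata6 was called in 10 of the 15 alternatives. Smooth muscle genes were called higher in 1 case without array 2 and in 2 with the replicate block, where 1 was also lower, and 1 fibroblast gene was higher without array 3, with scaling between arrays, without the dye term and with the replicate block. Of 210 list counts, 159 stayed within 1.5 times. All factors were at least 13.8 times brighter than background.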

Other observations

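After the values were seen, and with limits drawn around those of Sox9, genes were counted whose ratio was below -1.2 on array 2 and within 0.4 of 0 on the other 3 arrays, and 2 of 18170 tested genes met this, Sox9 and Rec8, a cohesin subunit of meiosis. Rec8 had ratios of -0.24, -1.25, 0.23 and 0.00 on arrays 1 to 4. Its log2 levels were 9.25, 9.22, 9.53 and 9.48 in the cKO RNAs, against 9.48, 10.46, 9.30 and 9.48 in the control RNAs, so that, as for Sox9, the control RNA of array 2 was the highest of the 8.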
